A study of Mus musculus with 4 samples.

Results

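The regions described here are places between genes where ordinary-signal peaks of phosphorylated Smad1/5 (pSmad1/5) and phosphorylated Smad3 (pSmad3) overlapped in the mouse molar tooth germ. A peak, meaning 1 deposited line of the pSmad1/5 list, was a member if it met 4 conditions. It lay on chromosomes 1 to 19, its maximum signal was at most 32, it overlapped by at least 1 bp a pSmad3 peak with a maximum of at most 26, and its midpoint lay outside and more than 1 kb from every protein-coding or lncRNA gene of RefSeq (build mm10). This gave 541 members of 10741 pSmad1/5 peaks, and 445 of 7905 pSmad3 peaks overlapped them. The ceilings set aside peaks with very high maxima, and the list medians of the maximum were 16 for pSmad1/5 and 13 for pSmad3. The maximum, the overlap and the distance to genes chose the members, so these measured values are given as description only. The members were chosen by them.

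The series used CUT&RUN, in which an antibody brings micrococcal nuclease to chromatin and the DNA cut loose around the bound place is sequenced. Whole molar germs were taken from wild-type CD1 embryos (E13.5, the bud stage) and dissociated to single cells, and 2 libraries were made with each antibody, pSmad1/5 (Cell signaling technology) and pSmad3 (Abcam). The sources used here do not give the number of embryos behind a library, any control library or the read depth. Each antibody has 1 deposited list of peaks common to its libraries, so there was no replicate spread to test against, and every comparison below is a description of these lists.

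BMP receptors phosphorylate Smad1 and Smad5, and TGF-β and activin receptors phosphorylate Smad3. Both kinds of Smad join Smad4, enter the nucleus and bind DNA, often with other transcription factors, at promoters and at distal regulatory elements that can lie far from the gene they act on. BMP and TGF-β family signals both pass between epithelium and mesenchyme in the early tooth, and bulk peak lists cannot tell whether both kinds of Smad were bound in the same cells.

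Few members reached the start of a gene, and the rule itself works against this, since midpoints had to lie more than 1 kb from genes. The DNA of 4 starts that were reached is shown as examples of what the members cover there. The RefSeq promoter table, whose build GRCm38.p6 corresponds to mm10, gives 250 bases before to 50 bases after each start, written 5′ to 3′ on the strand of the gene. Of its 31396 windows, the members touched 11, at 10 genes. Capitals mark the Smad box CAGAC or its complement GTCTG, and the GC-rich Smad element GGCGCC, searched on both strands. The Smad box stood in 49.6% of all windows, the GC-rich element in 12.1%, and the palindromic element GTCTAGAC in 0.223% of all windows and in none of these 4. A match is a description of the letters and not evidence of binding. The first pair of windows lay under peaks of both antibodies outside gene families, at Sema5b, which encodes a semaphorin that guides axons, and Ankrd9, which encodes an ankyrin repeat protein. The next, at the ephrin ligand gene Efna2, lay under the pSmad1/5 peak and beyond the end of the pSmad3 peak. The last, at Sprr2a2, a cornified envelope gene of stratified epithelia, lay under both in a family of near copies.
Sema5b (chr16:35541112-35541411, plus strand): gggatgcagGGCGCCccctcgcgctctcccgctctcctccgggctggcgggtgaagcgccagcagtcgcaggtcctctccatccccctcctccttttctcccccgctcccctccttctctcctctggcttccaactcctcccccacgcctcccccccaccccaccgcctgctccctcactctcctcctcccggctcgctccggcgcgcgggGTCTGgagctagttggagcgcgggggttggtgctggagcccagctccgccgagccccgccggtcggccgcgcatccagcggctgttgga
Ankrd9 (chr12:110978991-110979290, minus strand): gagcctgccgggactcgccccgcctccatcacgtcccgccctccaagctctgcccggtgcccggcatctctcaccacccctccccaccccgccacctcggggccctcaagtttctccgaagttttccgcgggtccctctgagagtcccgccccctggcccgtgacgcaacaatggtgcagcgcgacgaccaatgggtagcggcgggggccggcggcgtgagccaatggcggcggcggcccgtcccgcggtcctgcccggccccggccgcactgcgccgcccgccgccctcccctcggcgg
Efna2 (chr10:80179232-80179531, plus strand): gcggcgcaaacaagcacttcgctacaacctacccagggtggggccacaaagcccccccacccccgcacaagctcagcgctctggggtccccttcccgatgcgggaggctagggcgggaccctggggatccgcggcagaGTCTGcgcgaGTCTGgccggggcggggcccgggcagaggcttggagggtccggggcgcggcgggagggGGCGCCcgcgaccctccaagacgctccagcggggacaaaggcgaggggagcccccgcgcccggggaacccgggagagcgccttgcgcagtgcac
Sprr2a2 (chr3:92250397-92250696, plus strand): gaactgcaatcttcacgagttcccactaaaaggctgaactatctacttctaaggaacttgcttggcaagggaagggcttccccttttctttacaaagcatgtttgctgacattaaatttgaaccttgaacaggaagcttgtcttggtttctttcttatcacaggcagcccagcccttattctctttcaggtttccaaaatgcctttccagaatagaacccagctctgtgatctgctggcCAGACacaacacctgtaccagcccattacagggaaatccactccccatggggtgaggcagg

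The Sema5b window held 1 Smad box and 1 GC-rich element, the Efna2 window 2 and 1, the Sprr2a2 window 1 and 0, and the Ankrd9 window shown held none. GC content was 73.0% at Sema5b, 75.7% at Ankrd9 and 74.7% at Efna2, and 46.7% at Sprr2a2, beside a median of 53% over all windows. The windows shown were chosen after their values were seen. Of the others touched and not counted in family runs, a second Ankrd9 window had 73.3% GC and 1 Smad box. The rest were lower in GC, with 55.7% at Ppy, 47.3% at Gm1979 and 47.0% at Gm51959. None of the 1005 miRNA hairpins in the RefSeq table was touched by a member.

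The overlap with pSmad3 was about as frequent between genes as in them. Of 3246 ordinary pSmad1/5 peaks between genes, the 541 members made up 16.7%, against 15.7% in or at genes (1007 of 6422) and 16.0% of all 9668 ordinary peaks. The share between genes was thus near that of all ordinary peaks. The 541 members came from 412 calls. A call here is a set of lines with the same total signal, maximum and region of the maximum, of which the deposited list holds several pieces. In all, 219 members were a call of 1 line, and the other 322 were pieces of 193 calls. The maximum fell within the line itself for 168 members (31.1%), against 271 of 1007 shared peaks in or at genes (26.9%) and 701 of 2678 pSmad1/5-only peaks between genes (26.2%), so the signal given for a peak is that of its call.

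Calls in several pieces were more common among members than in the peaks most like them. Of the 412 member calls, 46.8% were in several pieces (exact 95% Clopper-Pearson interval 41.9 to 51.8), against 36.85% of the 852 shared calls in or at genes (33.6 to 40.2) and 19.8% of the 2405 pSmad1/5-only calls between genes (18.3 to 21.5). These intervals cover counting error only, and a call with pieces in several groups counts in each. The median span of a member's call was 5026 bp (quartiles 2826 and 10538), against 3517 bp for shared calls in or at genes and 2598 bp for pSmad1/5-only calls between genes. The rule itself favours long calls, since 1 bp of overlap sufficed.

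**Figure D1:**
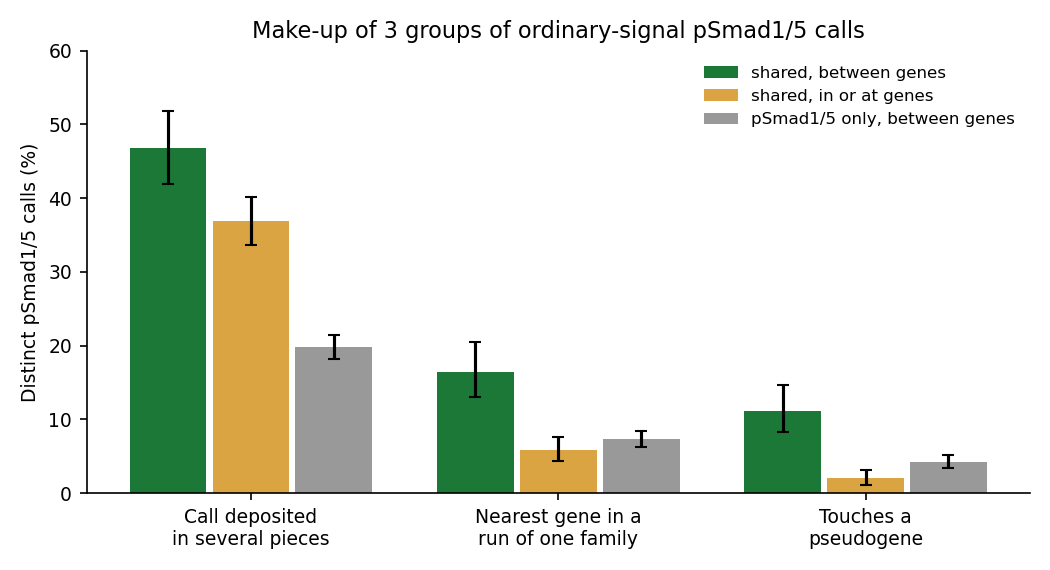
Share of distinct pSmad1/5 calls (%, with exact 95% intervals) that were deposited in several pieces, whose nearest protein-coding gene stood in a run of one family, or that touched a pseudogene, in members, in shared calls in or at genes, and in pSmad1/5-only calls between genes. The member bar is the highest of the 3 for each feature, at 46.8%, 16.5% and 11.2%.

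The members were wide and of moderate maximum. Their median width was 2782 bp (quartiles 2116 and 3889, range 3 to 19690), against 2503 bp for shared peaks in or at genes and 2332 bp for pSmad1/5-only peaks between genes. The median maximum was 20, against 17 and 16. The total signal is the authors' value for the whole call, and by rank the median member stood at percentile 70.7 of its list, against 63.4 and 39.0. The 219 members of 1 line had a median maximum of 17 and a median percentile of 47.6, whereas the 322 pieces had a median maximum of 22 and a median percentile of 86.1. High totals among the members were thus mainly those of long calls.

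Members lay at all distances from genes. The median distance from the midpoint to the nearest protein-coding or lncRNA gene was 16453 bp, and to the nearest protein-coding gene 24872 bp (quartiles 8914 and 72282), against 28877 bp for pSmad1/5-only peaks between genes. The nearest gene was an lncRNA gene for 172 members (31.8%). A protein-coding gene lay within 10 kb of 149 members (27.5%) and within 100 kb of 442 (81.7%), and 6 members were more than 500 kb from one. Where the strand was known, 207 of 453 members (45.7%, interval 41.0 to 50.4) lay before the start of that gene and 246 beyond its end. Among pSmad1/5-only peaks between genes 50.1% lay before the start, a value within that interval. The interval counts each piece of a call as separate, so no lean to either side is read from it.

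The member farthest from any gene lay 840372 bp from Pabpc4l, a poly(A)-binding protein gene, on chromosome 3 (47287330 to 47289393). Both of its signals were low, with a maximum of 12 and percentile 7.20 for pSmad1/5, and 11 and 5.97 for pSmad3. The next lay 722408 bp from any gene and 1672844 bp from the cadherin gene Cdh9 on chromosome 15 (15054578 to 15056833). There the pSmad1/5 call was high (maximum 24, percentile 93.9) while the pSmad3 peak was low (maximum 14, percentile 5.51). After it came a member 535605 bp from Sorcs3, a sortilin-family receptor gene, with a maximum of 30 but a percentile of 4.01 for pSmad1/5. Distance from genes thus went with no one level of signal in these examples.

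The pSmad1/5 peak lay wholly within the pSmad3 peak in about as many pairs as it did not, and the reverse was rare. Members and pSmad3 peaks formed 555 pairs, and in 278 of them (50.1%) the pSmad1/5 peak lay wholly inside the pSmad3 peak, against 20 (3.604%) the other way. The pSmad3 peaks were wider, with a median of 5830 bp (quartiles 4412 and 8111) over members, against 4548 bp for pSmad3-only peaks between genes. The median stretch in common was 2271 bp. Taken separately, the median share in common was 100% of the pSmad1/5 peak and 31.9% of the pSmad3 peak. Counted once for each pair of distinct calls, these medians were 97.4% and 37.3%. Of the 445 pSmad3 peaks, 405 (91.0%) also had their own midpoint between genes. Contact was slight in 23 pairs, which shared under 100 bp.

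**Figure D2:**
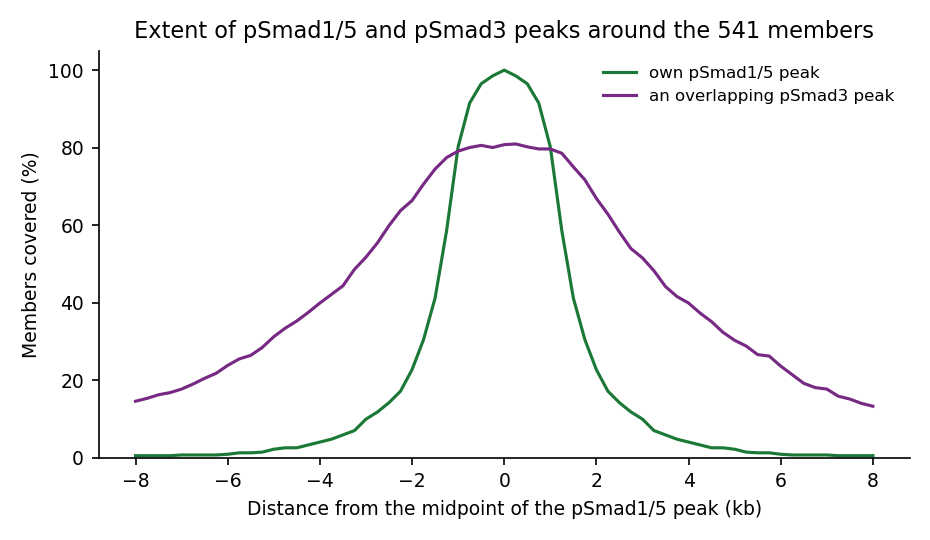
Share of the 541 members (%) covered by the member's own pSmad1/5 peak and by an overlapping pSmad3 peak, by distance from the midpoint of the pSmad1/5 peak (kb). At the midpoint 80.8% of members lay under a pSmad3 peak, and at 4 kb on either side 39.9% still did, against 4.07% for the pSmad1/5 peak itself.

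The highest points of the 2 signals were seldom at the same place. Over all pairs the median distance between the pSmad1/5 and the pSmad3 maximum was 3771 bp (quartiles 1343 and 8559). Many of these maxima lay outside the line, in another piece of the call or in no deposited line. The second case included calls of 1 line, such as the members nearest to Cdh20 and Phlpp1. In the 213 pairs where both calls were 1 line the median distance was 2422 bp. In the 140 pairs with both maxima inside their own lines the median was 1199 bp, 35 pairs (25%) had them within 500 bp, and 14 within 100 bp. Both maxima lay in the common stretch in 89 of the 140 (63.6%, interval 55.0 to 71.5). The pairs within 100 bp, chosen after their values were seen, are the places where the peaks of the branches coincided most closely.

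The closest was 26023 bp from Smurf2, which encodes a ubiquitin ligase that targets Smads and TGF-β receptors for degradation. On chromosome 11 the pSmad1/5 peak (106943527 to 106950013) lay wholly inside the pSmad3 peak (106942348 to 106950486), and the maxima were 3 bp apart. Its maxima of 18 and 13 and percentiles of 60.2 and 86.6 were moderate to high, and each call was 1 line. Next came Gm4884 on chromosome 7, with 22 bp between the maxima, and 1700049E17Rik2 on chromosome 14 with 24 bp, both genes with provisional or clone names. Another member lay 18186 bp from Zfr, a zinc finger RNA-binding protein gene, on chromosome 15 (12098303 to 12100452). It had a maximum of 30, with 38 bp between the maxima. At Igfbp7, an IGF-binding protein gene, the distance between the maxima was 38 bp too, 179824 bp from the gene. For the rest of the 14 the nearest protein-coding genes were Pcdh8 and Lrrc7, both expressed in neurons, A230072I06Rik, Ywhaz, Gm38699, Gm10476, Tpra1, Gm40862 and Fam53a. These genes lay between 24872 bp (Gm38699) and 211932 bp (Gm40862) away, with Pcdh8 at 64256 bp and Lrrc7 at 175365 bp. For 7 of the 14 both calls were 1 line.

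The ranks of the signals were loosely related. Across 448 pairs of distinct calls, Spearman's rho was 0.26 between the totals and 0.53 between the maxima, each within its own list. In the 213 pairs where both calls were 1 line they were 0.18 and 0.44. These are descriptions across sites, since the sites share libraries, long calls raise totals, and both maxima were capped by the rule.

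**Figure D3:**
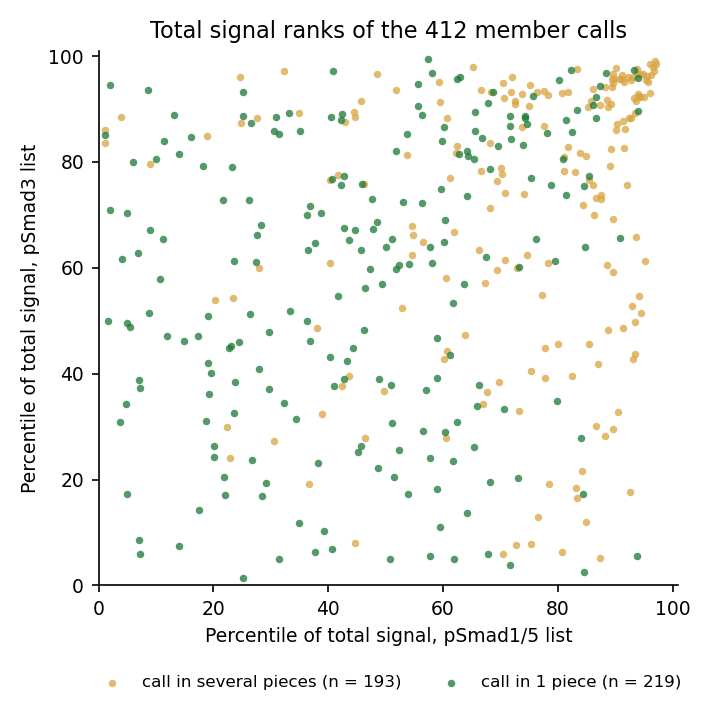
Percentile of total signal in the pSmad3 list against that in the pSmad1/5 list for the 412 member calls, 1 point per call, with calls in several pieces and in 1 piece in different colours. Calls in several pieces crowd at high pSmad1/5 percentiles (median over their lines 86.1), and calls in 1 piece spread over the range (median 47.6).

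Members were unevenly spread over the genome. Chromosome 12 held 108 members from 60 calls, 19.96% of all members, and there 37.5% of ordinary pSmad1/5 peaks between genes were members. Chromosome 4 came next with 55 members from 44 calls, and chromosome 18 had only 3. Within 50 kb of each other, 286 members (52.9%) formed 78 runs, while 255 stood alone. The share within 50 kb of another peak of the same group was 42.7% for shared peaks in or at genes and 39.1% for pSmad1/5-only peaks between genes. Among the members, 17 runs of 5 or more held 135 members from 54 calls. Most of the excess on chromosome 12 lay between 18 and 24 Mb, with 72 members from 32 calls.

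**Figure D4:**
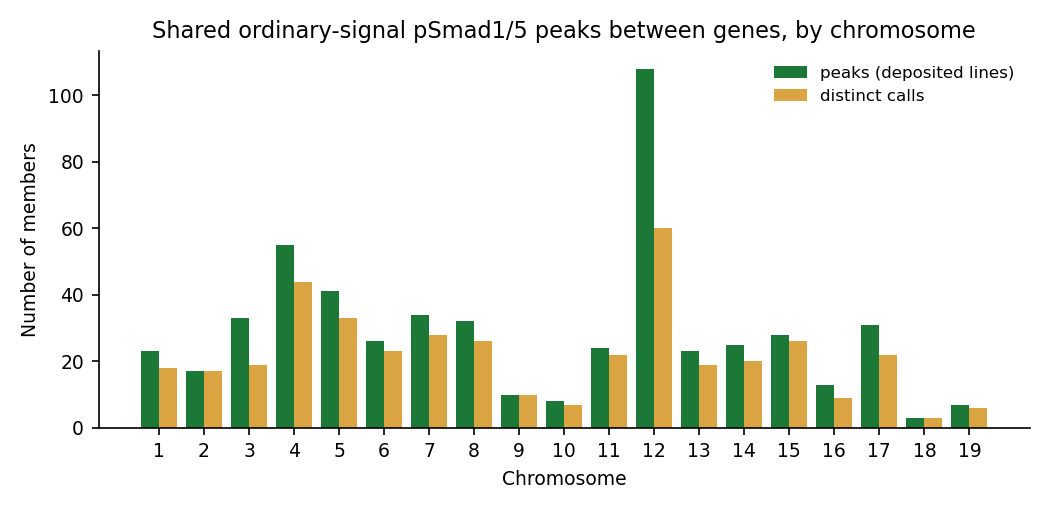
Number of members on each of chromosomes 1 to 19, as peaks (deposited lines) and as distinct calls. Chromosome 12 stands highest on both counts, with 108 peaks and 60 calls, and chromosome 18 is lowest with 3 and 3.

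The stretch of chromosome 12 from 18 to 24 Mb was chosen after its values were seen. Of its 117 ordinary pSmad1/5 peaks between genes, 72 (61.5%) were members, with a median maximum of 23.5, and 65 of the 72 were pieces of calls. For 56 of them the nearest protein-coding gene had only a provisional symbol (Gm or LOC). The longest run of members, 22 peaks from 6 calls, lay here from 23056671 to 23268741, between the lncRNA gene 2410018L13Rik and Gm40862. The call with the highest pSmad1/5 total of any member (percentile 97.2, maximum 32) gave 10 of these. Its overlapping pSmad3 peaks reached percentile 98.5 with a maximum of 19.

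A pair of runs of 13 members each lay in the same stretch. In the first, from 18222023 to 18380172, the closest midpoint of a member lay 9242 bp from Zfp996, a zinc finger gene. This run came from 6 calls with maxima of 22 to 29. At its far end, the call with pieces from 18222023 had its maximum 42 bp from the pSmad3 maximum, in a stretch that is not in the deposited pSmad1/5 lines. The second, from 19081417 to 19210939 near Gm40847, came from 4 calls, and 1 pSmad3 peak of 51695 bp lay over 6 of its members. Here 1 pSmad3 call thus counted as the partner of several pSmad1/5 peaks.

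Some members lay in tandem gene families. A gene was counted as standing in a family run if at least 2 other protein-coding genes within 250 kb shared the leading letters of its symbol, a definition set after values had been seen. Symbols starting with Gm, LOC or 2 capitals and a digit, or ending in Rik, could not count, so runs of such genes were not assessed. By that definition the nearest protein-coding gene stood in a family run for 16.5% of member calls (68 of 412, interval 13.1 to 20.5), against 5.87% of shared calls in or at genes (4.39 to 7.66) and 7.32% of pSmad1/5-only calls between genes (6.31 to 8.43). Pseudogenes were touched by 11.2% of member calls (8.29 to 14.6), against 1.995% and 4.24%. The pSmad3 peaks over members lie at the same places by the rule, so their shares are no separate support. Of their 434 calls, 16.8% stood next to a family run and 12.9% touched a pseudogene, against 6.48% and 5.25% of pSmad3-only calls between genes.

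The family share was also taken without chromosome 12 and for calls of 1 line. None of the members counted in family runs lay on chromosome 12, where many nearest genes had provisional symbols that could not count. Without chromosome 12 the family share was 24.3% of 433 members, counted as peaks, against 7.68% of shared peaks in or at genes and 7.72% of pSmad1/5-only peaks between genes. Among peaks that were calls of 1 line it was 11.0% of 219 members (7.15 to 15.9), against 4.28% (2.73 to 6.35) and 6.38% (5.33 to 7.56). For calls of 1 line the intervals of members and pSmad1/5-only peaks met between 7.15% and 7.56%, and the difference itself was not tested.

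The share also differed between bands of the maximum. Among peaks between genes with a maximum up to 16, 137 of 1792 (7.65%) were members, and 4.38% of members stood next to a family run, against 5.50% of pSmad1/5-only peaks. At a maximum of 17 to 20, 16.9% were members, and the family shares were 14.7% and 9.16%. At 21 to 25, 130 of 325 were members, with family shares of 35.4% and 15.2%. At 26 to 32, 56.7% were members, with family shares of 25.4% and 12 of 75 peaks. The share of members in pieces of a call differed over the same bands too, at 31.4% up to 16, 53.9% at 17 to 20, 74.6% at 21 to 25 and 83.1% at 26 to 32. Among pSmad1/5-only peaks it was 20.5%, 37.7%, 44.0% and 56.0%. Maximum and overlap were both used to choose the members, so these bands are a description, and the part of call length in them was not tested.

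**Figure D5:**
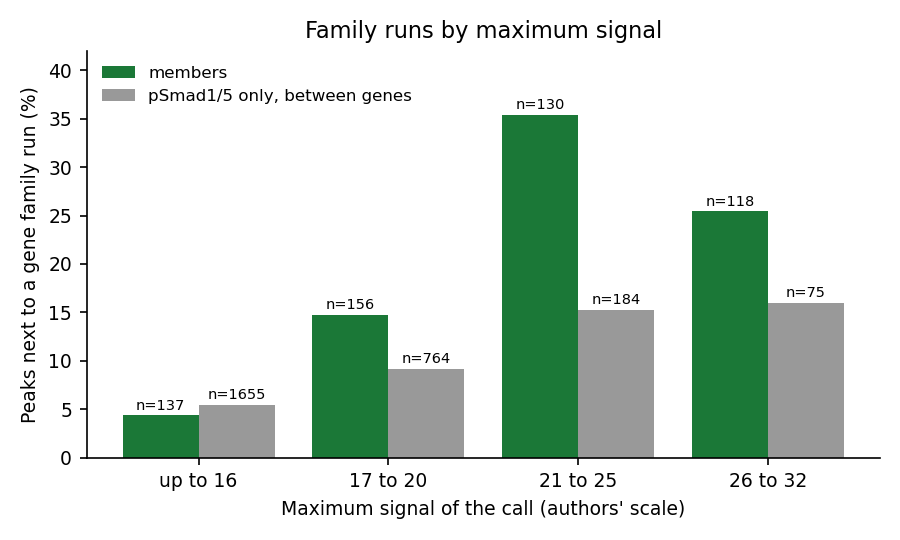
Share of peaks (%) whose nearest protein-coding gene stands in a family run, by maximum signal of the call on the authors' scale, for members and for pSmad1/5-only peaks between genes; n is the number of peaks. Members stand above pSmad1/5-only peaks in the 3 upper bands (14.7%, 35.4% and 25.4%) and not in the lowest (4.38% against 5.50%).

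The families with the most members were the Mup, Cyp, Chil and Tdpoz genes. The major urinary proteins (Mup), which liver makes as pheromone carriers, had the most, with 20 members from 11 calls on chromosome 4. Near Mup5 and Mup-ps16, from 61804909 to 61828801, 5 members of 2 calls lay under 1 pSmad3 peak of 39828 bp with a maximum of 24. Near Mup9, a member at 60422891 to 60425138 lay wholly inside a pSmad3 peak, with maxima of 25 and 17. These were 32 bp apart, but the pSmad1/5 maximum lay outside the deposited line.

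Cytochrome P450 genes (Cyp), enzymes of drug and steroid metabolism, had 13 members from 7 calls. On chromosome 5, from 145633567 to 145691014, 7 members from 2 calls lay beside Cyp3a41a and Cyp3a41b. Of these, 6 were pieces of 1 call (maximum 25, percentile 96.0) and lay under a pSmad3 peak of 61037 bp, the widest over any member (maximum 21, percentile 98.6). The chitinase-like genes (Chil) had 11 members from 5 calls on chromosome 3, in a run from 106132764 to 106306418 that also reached the chitinase gene Chia1. Maxima in that run were 18 to 25 for pSmad1/5 and 13 to 19 for pSmad3.

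At the Sprr2a genes on chromosome 3, which encode small proline-rich proteins of the cornified envelope, 5 members from 92224347 to 92282676 were pieces of 1 call. Its maximum was 26 and its percentile 96.9. The pSmad3 call over it was in 2 pieces of 41787 and 21125 bp, with a maximum of 23 and percentile 99.0. The largest member by width, 19690 bp, was here, and it holds the Sprr2a2 start printed above. Also on chromosome 3, the 7 members at Tdpoz3 and Tdpoz4, BTB-domain genes active in early embryos, came from 4 calls with maxima of 18 to 25.

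Smaller families had fewer members. The Pramel genes, of the germ line, had 5 members from 4 calls on chromosome 4, and near Pramel51 and Gm5662 on chromosome 12 a run had 7 members that were pieces of 1 call at the ceiling of 32. MHC class I genes had 4 members from 4 calls between H2-D1 and H2-Q1 on chromosome 17, with pSmad3 maxima of 24 and 20 and pSmad1/5 maxima of 14 to 23. The Naip genes, innate immune sensors of bacterial proteins, had 4 members from 3 calls on chromosome 13, and the dynein light chain genes of the Dynlt family 5 members from 2 calls on chromosome 17.

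Many of these genes have near-identical copies, and the sources used here do not give how reads that match several copies were handled. Which copy a signal belongs to is therefore uncertain at the families, at the provisional genes of chromosome 12 and at the 5S ribosomal RNA genes below, and whether copy number takes part in the overlap was not tested.

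The gap between genes with the most member calls lay between Obox7 and Obox2, oocyte-specific homeobox genes, on chromosome 7. It ran for 722.9 kb (14665997 to 15388850) and held 11 members from 9 calls. The member at 15304524 to 15307055 had an ordinary pSmad1/5 signal (maximum 19, percentile 57.3) and lay under a pSmad3 peak of 46055 bp with the highest total over any member (maximum 25, percentile 99.5). At the member from 15138701 to 15141504 the balance was the other way, with pSmad1/5 at maximum 29 and percentile 87.4, and pSmad3 at maximum 16 and percentile 5.14. At this pair of members high rank in one list thus did not go with high rank in the other. The pair does not stand for the whole gap. Its member from 14787595 to 14789977 ranked high in both lists, at percentile 87.3 for pSmad1/5 and 94.3 for pSmad3.

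Gaps with members were wide in general. The median was 57.45 kb for the 341 gaps with a member (quartiles 26.45 and 123.0), against 20.36 kb for all 20897 gaps over 2 kb. Longer gaps offer more room, so this is a description. Between Ero1b, an oxidase of the endoplasmic reticulum, and the prolactin-family gene Prl2c3 on chromosome 13, 6 members came from 4 calls. Among them the 3 bp peak at 12748748 was the narrowest member, and the member from 12762688 to 12768789 had maxima of 28 for pSmad1/5 and 19 for pSmad3.

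Around Tmem121 on chromosome 12, 4 members from 4 calls lay in a gap of 300.0 kb (113189524 to 113489564) that holds part of the immunoglobulin heavy chain locus, which is not among the gene classes of the rule. Their pSmad1/5 maxima ran from 16 to 26 and their pSmad3 maxima from 12 to 15.

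The 5S ribosomal RNA array of chromosome 8 held peaks of both antibodies. The table lists 40 of these genes from 123538784 to 123622046, and 21 were touched by 4 members from 3 calls near Gas8, a gene of motile cilia. These members lay at 123538231 to 123548260 (maximum 19), 123556863 to 123564295 (18), and 123568327 to 123577060 and 123577437 to 123587996 (32, pieces of 1 call). The array also held a pSmad1/5 peak of 24528 bp with a maximum of 41, above the ceiling, so the members are the lower part of a longer signal. The pSmad3 maxima over the array were 13 to 29. In all, 66 members touched a gene of a class outside the rule, of which 55 touched a pseudogene.

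Few protein-coding genes had a member as their neighbour, and the same held for genes of tooth development and Smad signalling. Within 100 kb, 304 of 20560 protein-coding genes (1.48%) were the nearest such gene of a member. Of 436 distinct genes on 17 lists, 9 (2.06%) were, close to that background. Among BMP and TGF-β pathway components it was 1 of 44 (Smurf2), among dental mesenchyme genes 1 of 40 (Gli2), and among dental epithelium genes 0 of 30. The lists of TGF-β targets (21 genes) and BMP targets (20) had 0, as had the Notch (25), forkhead (41), myeloid, muscle and red blood cell lists. At a background of 1.48%, lists this short would hold few such genes or none, so a count of 0 is not read as a lack.

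Outside Smurf2, the contact at these genes was often slight. Gli2, a transcription factor of Hedgehog signalling, had a member 62968 bp away of only 244 bp, under a pSmad3 peak of 13215 bp. At Fgfr3, an FGF receptor that restrains bone growth, the peaks shared 56 bp, and at Ngfr, a neurotrophin receptor, 73 bp. At Wnt7a, an epithelial Wnt ligand, 1796 bp were common, with maxima of 15 and 16 lying 663 bp apart. Neither maximum lay under the peak of the other antibody.

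The rest were Sox8, Kdr, Nefl and Ywhaz. At Sox8, a transcription factor of neural crest and cartilage, the member was 570 bp wide and lay wholly under a pSmad3 peak. Kdr, the main VEGF receptor of endothelium, had a member 93480 bp away with a percentile of 8.78 for pSmad1/5. At Nefl, a neurofilament gene, all 4140 bp of the member lay under a pSmad3 peak. Ywhaz, used as a housekeeping gene, had maxima of 19 and 17 that lay 64 bp apart, the second closest pair on these lists after Smurf2.

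Genes nearest to several member calls were of several kinds. Within 100 kb, 43 genes were nearest to 2 or more calls. With no limit on the distance, Gm40862 and Zfp996 led with 6 calls each, then Pard3 and Obox7 with 5 each. All calls of Gm40862 lay beyond that limit, the closest at 127836 bp. Pard3, which encodes a cell polarity scaffold, was nearest to 5 calls without standing in a family run. Its 9 members lay on chromosome 8 from 127661253 to 127835990, between 50259 and 222280 bp from the gene, with maxima of 17 to 23 for pSmad1/5 and 12 to 20 for pSmad3. Sema5b and Pdia5, a disulphide isomerase gene, shared a run of 6 members from 2 calls on chromosome 16 (35491609 to 35542572), 5 of which were pieces of a call in 12. The sixth is the peak over the Sema5b start shown above, with a maximum of 21 under a pSmad3 peak with a maximum of 15.

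Other developmental regulators, chosen after their values were seen, lay near members as well. Six3, a homeobox gene of forebrain and eye, had a member of 3327 bp on chromosome 17 (85625997 to 85629323) wholly under a pSmad3 peak, with maxima of 14 and 12. Runx3, a Runt-domain transcription factor, had a member 66446 bp away whose pSmad1/5 call stood at percentile 84.5 while its pSmad3 peak stood at 2.63. The lncRNA gene Gm42327 was closer to that member, at 2832 bp. The pSmad1/5 maximum there lay outside the deposited line, 9476 bp from the pSmad3 maximum. The pSmad1/5 maxima of 14 at Six3 and 18 at Runx3 lay near the list median of 16.

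The thresholds of the rule cut through graded values. Just under the pSmad1/5 ceiling, at 32, were members near Gm38538, Pramel51 and Gm3476, and just over it, at 33 and 34, were peaks near Alad, a haem synthesis gene, Prox1, a lymphatic regulator, and Prl2c3. For pSmad3 the last inside, at 26, were over members near Llgl1, Ahnak2 and Tnrc6a, and the first outside, at 27, were near Gm5797, Tead1 and Gas8. The midpoints closest to a gene were 1022 bp away at Pde4c, 1056 bp at C1s1 and 1108 bp at Fbxw8, against 965 bp at Ndufaf8, 935 bp at Cdc6 and 924 bp at Gm3512 just outside the rule. A further 27 ordinary pSmad1/5 peaks between genes met only pSmad3 peaks over the ceiling, and 383 pSmad1/5 peaks between genes over the ceiling met a pSmad3 peak.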

How the data were processed

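CUT&RUN was done on molar tooth germs, with 2 libraries for each of 2 antibodies. The authors deposited 1 peak list per antibody, named as the peaks common to its libraries. The authors made the signal values by calling peaks with SEACR on read coverage and deposited, for each call, its total and maximum signal, per the labels; the sources used here do not give their scaling. Per the submitters' processing notes, Bowtie2, SAMtools, bedtools, SEACR and deepTools were used with build mm10, without versions, settings or control. SEACR is a peak caller for sparse background. The way in which the libraries' calls became 1 list is not stated, so a value may be that of 1 library. Signals were therefore ranked within a list and never compared between antibodies. Percentiles are ranks of the total signal over all lines of a list.

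From the lists, overlaps, distances from peak midpoints to genes, and medians were computed with Python 3.11.15, pandas 2.3.3, NumPy 2.4.6 and SciPy 1.17.1, and drawn with matplotlib 3.10.9. Overlap and distance code was tested on simulated data. The RefSeq table of GRCm38.p6 placed 20560 protein-coding and 12324 lncRNA genes on chromosomes 1 to 19. Entries placed before 3 Mb were not used. Strand came from the promoter table, and 88 members had a nearest gene without it. Symbols starting with Gm or LOC, or ending in Rik with or without a number, were taken as provisional and could not count as a family. Of the gene lists, symbols were matched exactly. Sequences of whole peaks were not used here.

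The named genes were the nearest genes of the highest totals, of the farthest members, of the gaps and runs with most members, of both sides of each threshold, and all list genes nearest to a member. The members, the gene lists and the rules were chosen with earlier results of these data known, and family, promoter and close-maximum examples were chosen after their values were seen. No test was run, since each antibody has 1 list. The exact 95% intervals cover counting error only. Alternatives varied the overlap, ceilings, total signal, distance to genes, gene classes and joining of lines.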

Additional observations from a re-analysis of the deposited data

How the results depend on the processing

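Of 65 alternative values for 7 results, 46 stayed close to the reported ones and 19 moved. The number of members, 541, was 951 with no upper limit on the maximum, 351 with ceilings of 24 and 19, 350 when the midpoint had to lie over 10 kb from every gene, and 288 with total signals at or above the list median. The number of pSmad3 peaks, 445, was 714, 283 and 211 with no limit, 10 kb and the total signal limit. The number of nearest protein-coding genes, 304, was 180 with 10 kb and 150 with the total signal limit. The share of ordinary peaks between genes that overlapped pSmad3, 16.7%, was 25.5% with no limit, 20.6% with the total signal limit, 15.2% with lines of 1 call joined, 13.99% when the overlap had to reach 50% of the shorter peak, and 11.8% with the lower ceilings. The median width, 2782 bp, was 4842 bp with lines joined, 2984 bp with no limit and 2902 bp with the total signal limit. The median distance to a protein-coding gene, 24872 bp, was 41538 bp with 10 kb, and the median distance between maxima, 3771 bp, was 1199 bp where both lay inside their lines. The changes in counts follow from fewer or more peaks being admitted, and the cause of the others was not tested.

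No paired analysis was possible because each antibody has 1 list and its columns carry no replicate. For the same reason no library was left out in turn. Without read depth, a missing pSmad3 peak means no deposited call and not an absence of signal.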

Other observations

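The rule stops at chromosome 19, and the X chromosome, treated in the same way, held a high share of overlaps. Of 75 ordinary pSmad1/5 peaks there, 23 from 16 calls overlapped an ordinary pSmad3 peak, and all 23 had their midpoint between genes, with a median width of 5593 bp. For 14 of them the nearest gene was of the Btbd35f family, BTB-domain genes in tandem copies, and 14 lay from 31 to 35 Mb. The pair with the highest maximum, 30, lay near Btbd35f22 (32073268 to 32085455 and 32087995 to 32097958) and was 1 call. The Y chromosome had 2 ordinary pSmad1/5 peaks, and 0 overlapped an ordinary pSmad3 peak.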
